A study of Mus musculus with 16 samples.

Results

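Plasmacytoid dendritic cells (PDC) of mouse bone marrow were compared with CD8+ dendritic cells (CD8+ DC) of spleen by their microRNA (miRNA) levels. The comparison rests on 4 of the 16 arrays of the study, chosen by their sample titles: 2 biological replicates of PDC and 2 of CD8+ DC. PDC were sorted as B220+, CD11c intermediate, SiglecH+ and CD317+ cells from femur and tibia, each replicate being RNA of 5 pooled mice. CD8+ DC were sorted as CD11c+, CD3-, CD4-, CD8+, CD86+ and B220- cells from spleen, each replicate being RNA of 8 pooled mice. All animals were female C57Bl/6 mice at 6 weeks of age, and the cells went to RNA within hours of isolation, without culture. The other 12 arrays held marrow progenitors (MP, MDP and CDP), Gr1+ marrow monocytes, and CD4+ and CD4-CD8- spleen DC, 2 arrays each. They enter the estimate of the spread, and both other spleen DC populations also serve as a second reference. Tissue, the way cells were enriched before sorting (Ficoll for PDC, CD11c beads for spleen DC), pool size and the CD86 gate go with the population and cannot be told apart from it. The arrays carry no probes for the surface proteins used in sorting, so the identity of the cells could not be checked against those markers.

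A miRNA is a short RNA cut from a hairpin precursor. It guides the silencing complex to messenger RNAs chiefly through its seed, bases 2 to 8, so miRNAs with the same seed form a family with overlapping targets. PDC are the main source of type I interferon when nucleic acids of viruses are sensed, and they share surface and transcriptional features with lymphocytes. CD8+ DC of the spleen are conventional DC known for cross-presenting antigen of dying cells to CD8+ T cells. miR-181 and miR-150 are best known from lymphocytes, miR-223 from granulocytes and monocytes, and miR-126 and miR-196b from stem and progenitor cells.

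The mature sequences of the miRNAs on which the comparison turns are given first, 5′ to 3′, with the seed in capitals. They were taken from RefSeq (mouse, GRCm38.p6), where the probe sequences of 151 of the 175 tested miRNAs, and of 37 of the 43 described below, matched a single mature sequence. The first 4 are the miR-181 family, shown because they share a seed and all lay higher in PDC.
miR-181a: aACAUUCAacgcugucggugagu
miR-181b: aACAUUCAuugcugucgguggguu
miR-181c: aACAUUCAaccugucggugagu
miR-181d: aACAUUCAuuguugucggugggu
Further miRNAs that were higher in PDC come next, each with a seed of its own.
miR-128: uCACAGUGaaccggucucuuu
miR-592: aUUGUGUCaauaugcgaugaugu
miR-362-3p: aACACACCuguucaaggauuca
miR-126-3p: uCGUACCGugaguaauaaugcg
miR-196b: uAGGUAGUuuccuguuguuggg
The next set was higher in CD8+ DC, and it too shares no seed among its members.
miR-34a: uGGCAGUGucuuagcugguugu
miR-138: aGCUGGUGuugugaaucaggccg
miR-223: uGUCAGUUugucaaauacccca
miR-342-3p: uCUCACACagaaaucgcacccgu
miR-22: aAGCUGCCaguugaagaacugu
miR-365: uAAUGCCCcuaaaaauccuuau
The last set holds pairs with one seed but unlike differences between the cells: miR-148a with miR-148b, and miR-130a with miR-721.
miR-148a: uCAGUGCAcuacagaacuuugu
miR-148b: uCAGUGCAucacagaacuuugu
miR-130a: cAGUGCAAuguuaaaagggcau
miR-721: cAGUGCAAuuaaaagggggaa

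All levels below are log2 values of the signal divided by its array's 75th percentile, and differences are PDC minus CD8+ DC on that scale, positive where PDC were higher and given ± their standard error. Levels describe 1 miRNA across arrays and are not comparable between miRNAs, because each has its own probes. Replicate 1 of every population lay on one array design and replicate 2 on another, so each difference was taken within a replicate number and then over both. Of the spots, 16.82 and 25.34 percent on the PDC arrays and 20.18 and 25.45 percent on the CD8+ DC arrays were well above background, with 0 saturated. Among the 604 miRNAs on both designs, 129 and 171 were detected in PDC and 150 and 174 in CD8+ DC. With 2 pools per population, the number of arrays limits the precision. The errors come from 1 fit to the arrays of all populations. They thus include the spread in the other populations and do not describe the agreement of the PDC and CD8+ DC pools alone. A floor of -5.30 on design 1 and -5.78 on design 2 stands in for values too dim to measure. A miRNA is called not above background in a population where it was detected on 0 of its arrays.

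PDC and CD8+ DC differed in a large share of their miRNAs. Of 175 miRNAs tested, 93 passed an adjusted p of 0.05 (53.1 percent), 27 higher in PDC (15.4 percent) and 66 lower (37.7 percent), and in all 93 the difference had the same sign in both replicates. Without CD8+ DC replicate 1 the 66 became 43. The balance between the directions depended on how arrays were scaled: dividing by the 75th percentile of all miRNAs gave 51 higher and 17 lower, quantile normalization 43 and 37, and dividing by the median of the same 88 miRNAs 32 and 45. The median difference over all tested miRNAs moved from -0.20 to 0.18, 0.00 and -0.08 with these scalings, so a small difference in one direction cannot be read from 1 scaling alone. The account therefore leads with 43 miRNAs (24.6 percent) that were called in the same direction under all 4 scalings, 26 higher in PDC (14.9 percent) and 17 lower (9.71 percent). Of the 27 called higher, 26 belonged to this group, the other being miR-669a (0.48 ± 0.10 (SE), adjusted p = 0.00357). Of the 66 called lower, 49 did not belong to it and 10 changed sign under some scaling. The main scaling had the lowest median difference, and each other scaling moved that median towards PDC. Such a shift favours keeping higher calls and losing lower ones. The unlike losses thus do not show that the higher calls are the more robust. In the 43 miRNAs the 2 replicate differences lay a median of 0.40 apart and at most 1.53. In 77 called miRNAs more than 1 probe was detected, and in all 77 the probes had the same sign. Calls were made on the mean of these probes and over both replicates, which favours like signs among the miRNAs called. The like signs of probes and of replicates are thus no separate support.

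**Figure D1:**
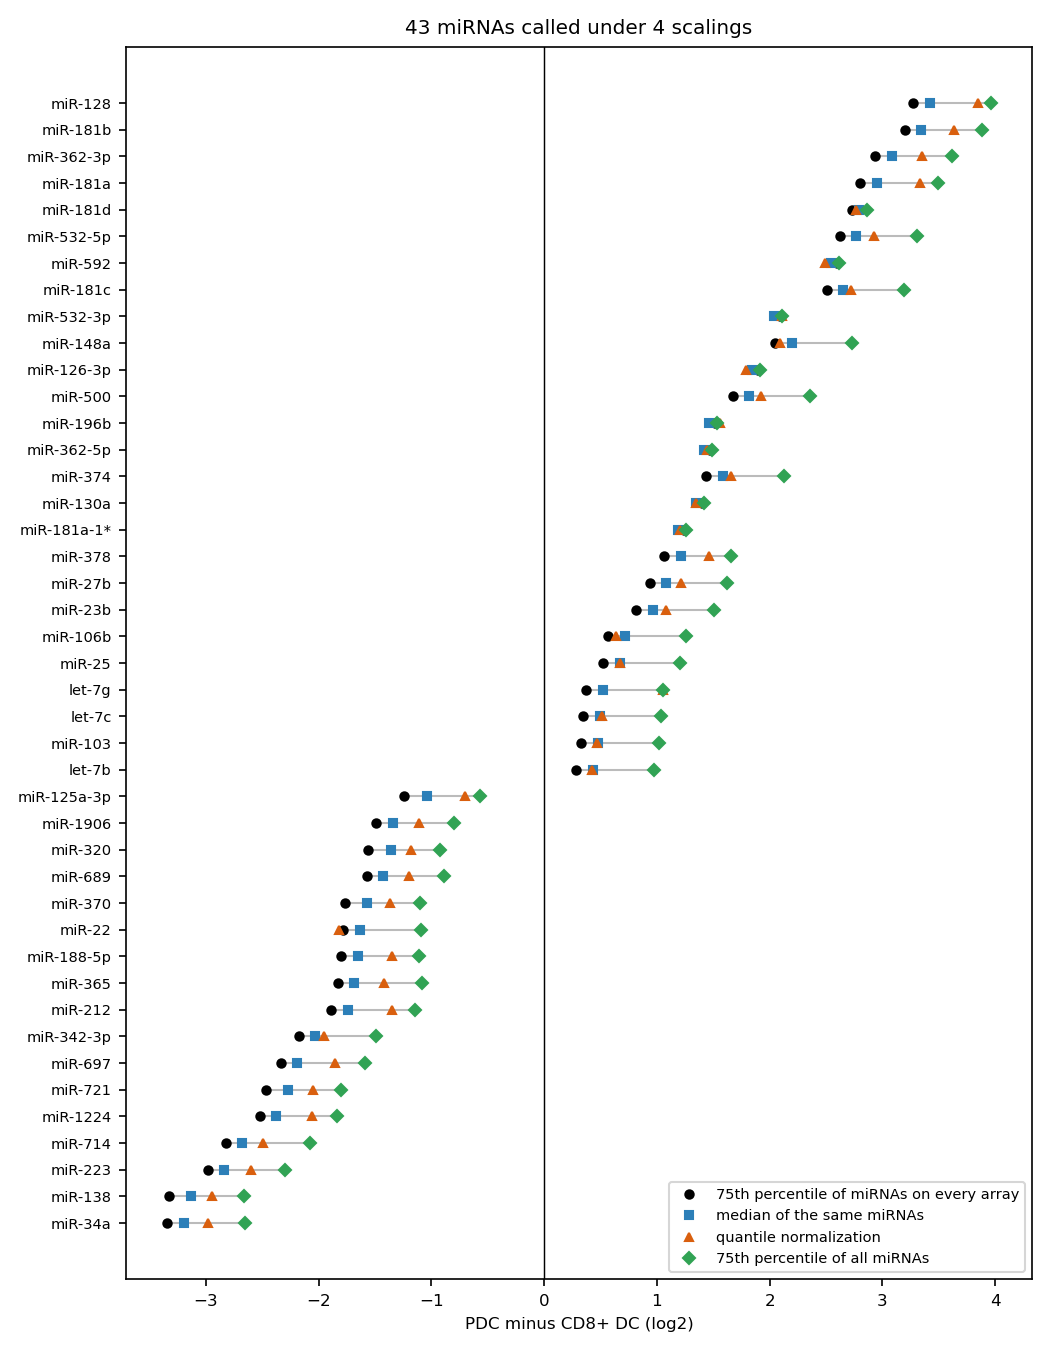
Differences of the 43 miRNAs called under all 4 scalings. The horizontal axis is PDC minus CD8+ DC in log2 units, each line is 1 miRNA, and the symbols are the 4 scalings; no symbol crosses 0, and the symbols of the scaling by all miRNAs lie to the right of those of the main scaling.

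Settings beyond the scaling also bear on these 43. After normexp background correction with an offset of 50, the calls of 9 held: miR-181a, miR-181b, miR-128, miR-500, miR-223, miR-34a, miR-342-3p, miR-22 and miR-1224. The other 34 were not called then. They include let-7g, far above the floor on all 4 arrays, and miR-196b, at the floor in CD8+ DC. The cause of these losses was not tested. Fitted on the 4 arrays alone, without the spread of the other populations, limma called 0 miRNAs, 70 had an unadjusted p under 0.05, and the smallest adjusted p was 0.0550. The calls thus rest on the spread that all 16 arrays share.

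**Figure D2:**
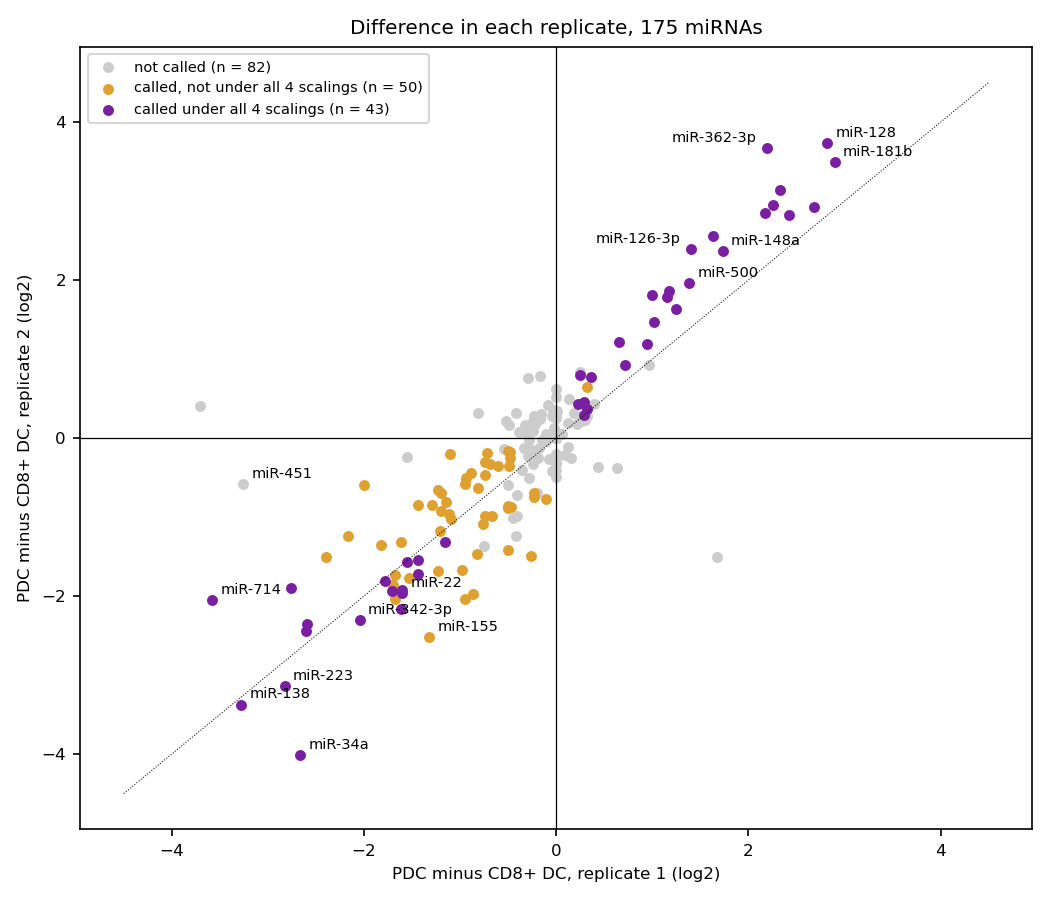
Difference between PDC and CD8+ DC in replicate 1 (horizontal axis) and replicate 2 (vertical axis), both in log2 units, for 175 miRNAs. Points are coloured by whether the miRNA was called; the 43 called under all 4 scalings have the same sign on both axes, and miR-451 lies far from the diagonal, with -3.26 in replicate 1 and -0.58 in replicate 2.

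The miR-181 family was higher in PDC as a whole. miR-181a, which sets the signalling threshold of developing T cells, read 0.61 and 0.83 in PDC and -2.07 and -2.10 in CD8+ DC. Its arrays were thus well apart, the difference being 2.80 ± 0.13, a 6.98-fold higher level in PDC (adjusted p = 5.51e-07). miR-181b read -1.36 and -0.95 in PDC and -4.26 and -4.45 in CD8+ DC, which is 9.17-fold higher in PDC (3.20 ± 0.15, adjusted p = 5.51e-07). Both are encoded in the same pair of loci, 169 bases apart on chromosome 1 (mm9, miR-181a probes at 139863054 to 139863067) and 1091 bases apart on chromosome 2 (38708270 to 38708283), and the mature forms do not tell which locus was transcribed. miR-181c and miR-181d come from another locus, on chromosome 8, 149 bases apart. miR-181c read -2.15 and -1.81 in PDC and -4.32 and -4.66 in CD8+ DC (2.51 ± 0.19, adjusted p = 1.06e-05). miR-181d read -2.82 and -2.57 in PDC and -5.14 and -5.70 in CD8+ DC (2.73 ± 0.29, adjusted p = 7.15e-05), and it was detected on 1 of the 2 CD8+ DC arrays, so its size is limited by the floor. The 4 members, which share the seed ACAUUCA, thus spanned 2.51 to 3.20, and the passenger strand miR-181a-1*, made only by the chromosome 1 locus, was also higher. It read -4.28 and -4.31 in PDC and was not above background in CD8+ DC, which makes it at least 1.69-fold higher in PDC (1.24 ± 0.16, adjusted p = 0.000224). Here and below, such a lower bound takes, on each dim array, the higher of the miRNA's own signal and the lowest among probes well above background.

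miR-128 and miR-181b had the largest differences of the miRNAs higher in PDC in the main scaling, and their order turned between replicates. miR-128, encoded on chromosomes 1 and 9 within introns of R3hdm1 and Arpp21 and abundant in brain and lymphoid progenitors, read -1.10 and -0.43 in PDC and -3.93 and -4.16 in CD8+ DC. The replicate differences were 2.82 and 3.73, and the level was 9.68-fold higher in PDC (3.28 ± 0.27, adjusted p = 1.93e-05). Its means in the other 6 populations lay between -4.96 in Gr1+ monocytes and -3.20 in MP, all below both PDC arrays. miR-592, encoded on chromosome 6 (mm9, probes at 27886676 to 27886694) within an intron of Grm8, read -3.05 and -2.83 in PDC and was detected on 0 arrays of the other 7 populations. Against CD8+ DC it was at least 4.32-fold higher in PDC (2.60 ± 0.17, adjusted p = 5.06e-06). miR-148a, which is known to act on the DNA methyltransferase Dnmt1, read -1.80 and -1.68 in PDC and -3.53 and -4.04 in CD8+ DC, a 4.14-fold difference (2.05 ± 0.14, adjusted p = 5.87e-06). miR-148b has the same seed, CAGUGCA, and its arrays overlapped (-4.49 and -4.24 in PDC, -4.38 and -4.28 in CD8+ DC; -0.03 ± 0.14, adjusted p = 0.922). miR-374, named after its values were seen, read -2.35 and -1.94 in PDC and -3.59 and -3.57 in CD8+ DC (1.44 ± 0.13, adjusted p = 2.95e-05).

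**Figure D3:**
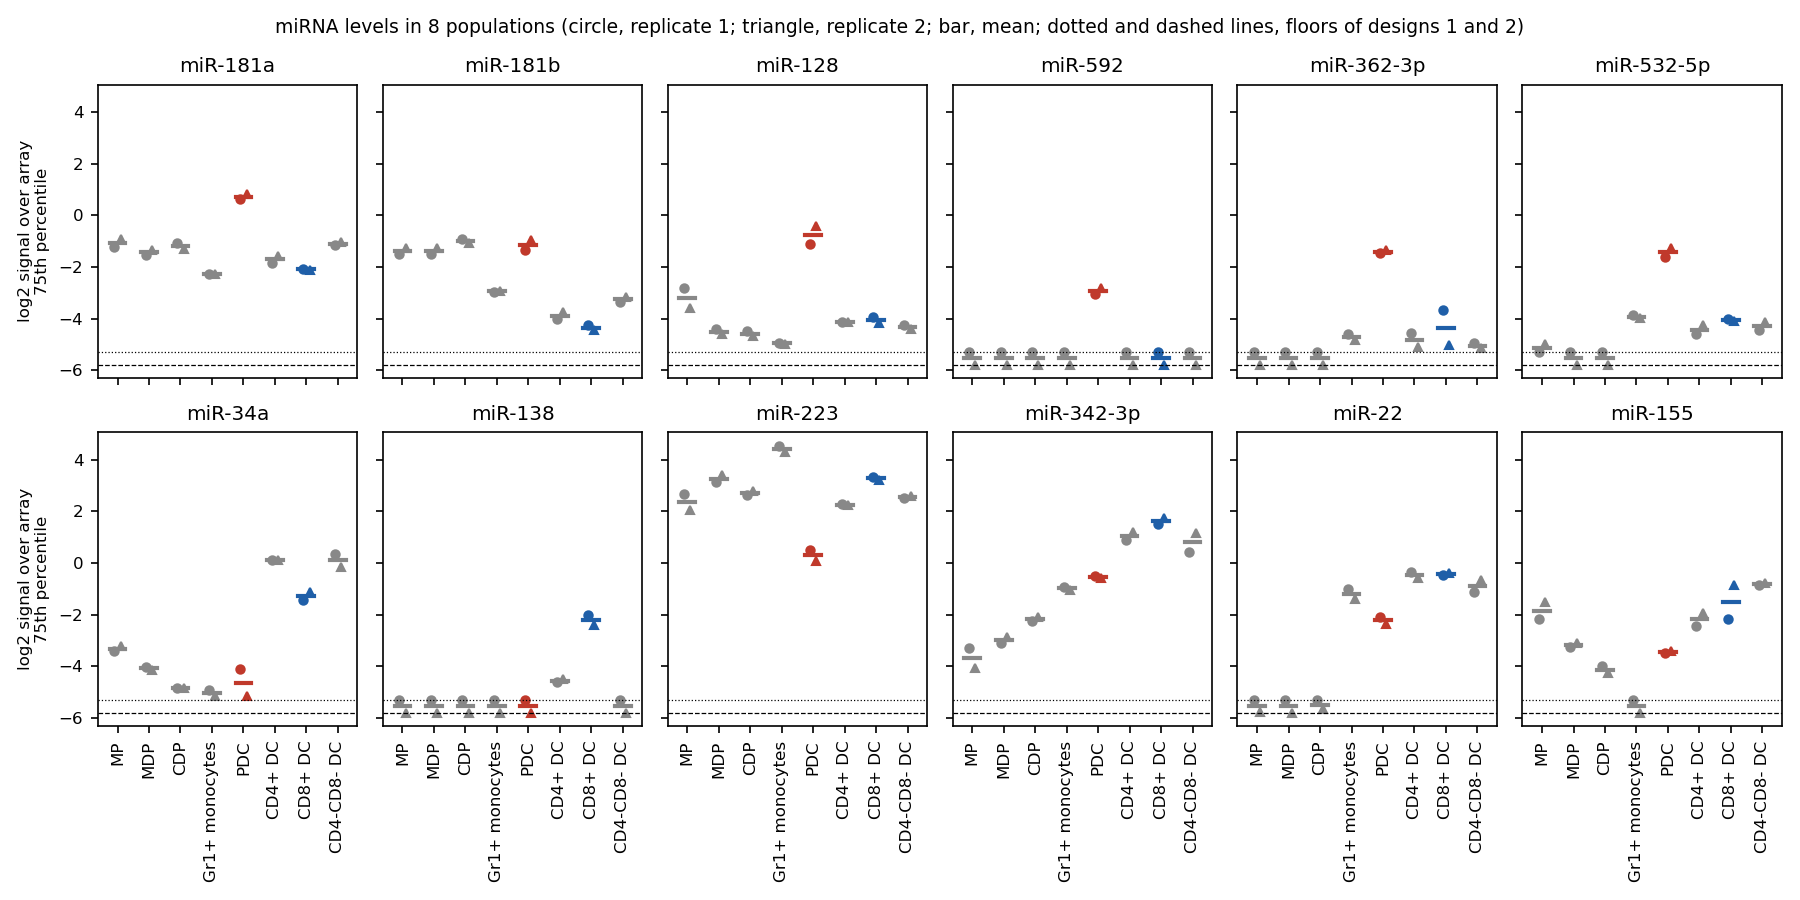
Levels of 12 miRNAs in the 8 populations (vertical axis, log2 signal over the array's 75th percentile; circles and triangles, replicates 1 and 2; bars, means; PDC in red and CD8+ DC in blue; dotted and dashed lines, the floors of the 2 designs). PDC stand above CD8+ DC in the upper row and below them in the lower row, miR-592 leaves the floor in PDC only, and the 2 CD8+ DC arrays of miR-155 lie apart, at -2.16 and -0.86.

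A cluster on chromosome X split between the cells. It spans 10733 bases (mm9, 6814874 to 6825606), lies within the chloride channel gene Clcn5, and holds 7 tested miRNAs, of which 5 were higher in PDC, 1 lower and 1 not called. Calls over all tested miRNAs were 15.4 percent higher and 37.7 percent lower. miR-532-5p read -1.60 and -1.25 in PDC and -4.02 and -4.07 in CD8+ DC, 6.15-fold higher in PDC (2.62 ± 0.24, adjusted p = 3.44e-05). miR-362-3p read -1.47 and -1.36 in PDC and -3.67 and -5.03 in CD8+ DC, so the CD8+ DC arrays lay far apart, but both lay below the PDC arrays (2.93 ± 0.28, adjusted p = 4.46e-05). miR-500 read -0.28 and -0.04 in PDC and -1.67 and -2.0 in CD8+ DC (1.67 ± 0.41, adjusted p = 0.00844), which was no longer called without PDC replicate 2 (1.43) or CD8+ DC replicate 2 (1.59). Of the other arms, miR-532-3p read -3.67 and -3.23 in PDC and lay at the floor in CD8+ DC though detected there (2.09 ± 0.22, adjusted p = 6.96e-05), and miR-362-5p, not above background in CD8+ DC, was at least 1.98-fold higher in PDC (1.47 ± 0.16, adjusted p = 7.66e-05). miR-188-5p went the other way: it read -4.30 and -4.77 in PDC and -2.52 and -2.96 in CD8+ DC (-1.80 ± 0.37, adjusted p = 0.00405), although its probes lie 414 bases from those of miR-532-5p. miR-501-3p, with the same seed as miR-500, was at or near the floor on all 4 arrays (0.14 ± 0.09, adjusted p = 0.212). miR-188-5p and miR-501-3p were named after their values were seen.

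Several miRNAs of stem and progenitor cells were detected in PDC but not above background in CD8+ DC. Of 13 on that list 7 were tested, 3 were higher in PDC, 0 lower and 4 not called. The shares over all tested miRNAs were 15.4 percent higher and 37.7 percent lower. The list's median was 0.95, against -0.20 over all tested miRNAs. miR-126-3p, a regulator of stem cell quiescence that is also abundant in endothelium and lies in an intron of Egfl7, read -3.90 and -3.39 in PDC and was not above background in CD8+ DC, at least 2.65-fold higher in PDC (1.89 ± 0.23, adjusted p = 0.000166). miR-196b, of the Hoxa cluster, read -4.13 and -3.92 in PDC and was at least 2.04-fold higher there (1.51 ± 0.22, adjusted p = 0.000533). miR-130a read -4.31 and -3.97 in PDC and was at least 1.89-fold higher (1.40 ± 0.34, adjusted p = 0.00792), not called once PDC replicate 2 (1.16) or CD8+ DC replicate 2 (1.18) was removed. All 3 were detected on both arrays of MP, MDP and CDP, and on 0 arrays of Gr1+ monocytes and of the spleen DC. In PDC their means were below those in MP, where miR-126-3p read -1.62, miR-196b -1.42 and miR-130a -1.04. miR-10a, encoded in the Hoxb cluster, was not called in the main scaling (-3.40 and -3.58 against -4.37 and -4.51; 0.95 ± 0.40, adjusted p = 0.0781). It was called higher in PDC when scaled over all miRNAs (1.63) or by quantiles (1.45), but not by the median (1.10). In the main scaling miR-99a, let-7e and miR-125b-5p were not called (-0.14 to 0.04). miR-125b-5p read -4.43 and -4.03 in PDC and -4.87 and -3.67 in CD8+ DC, with overlapping arrays.

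Smaller differences marked further miRNAs that were higher in PDC. miR-23b and miR-27b, 216 bases apart on chromosome 13, were 1.76-fold and 1.91-fold higher in PDC (0.82 ± 0.15, adjusted p = 0.00205, and 0.94 ± 0.17, adjusted p = 0.00196). Their relatives miR-23a, miR-27a and miR-24 were not called in the main scaling (0.27, 0.54 and 0.42). Under the 3 other scalings miR-23a and miR-24 were called higher in PDC. miR-27a was called higher when scaled over all miRNAs or by the median, but not by quantiles. In the main scaling 2 of 5 in these clusters were thus higher and 0 lower, beside 15.4 and 37.7 percent over all tested miRNAs. The median of the 5 was 0.54. miR-106b and miR-25, 360 bases apart in an intron of Mcm7, read -0.16 and -0.10 against -0.52 and -0.87, and 0.15 and 0.56 against -0.10 and -0.24. Their differences were 0.57 ± 0.13 (adjusted p = 0.00745) and 0.52 ± 0.13 (adjusted p = 0.00818), while miR-93 between them was not called (0.07 ± 0.16, adjusted p = 0.777). The call of miR-106b ended without PDC replicate 2 (0.40) or CD8+ DC replicate 2 (0.50), and that of miR-25 without CD8+ DC replicate 2 (0.41), while without PDC replicate 2 its difference was 0.32. miR-378, named after its values were seen, read -3.61 and -3.46 in PDC and -4.56 and -4.64 in CD8+ DC. It was 2.10-fold higher in PDC (1.07 ± 0.31, adjusted p = 0.0182). Its call was lost on removal of PDC replicate 1 (1.00), PDC replicate 2 (1.14) or CD8+ DC replicate 2 (0.86). miR-103, which acts in insulin signalling, was 1.26-fold higher (0.33 ± 0.10, adjusted p = 0.0235), a call that ended without CD8+ DC replicate 1 (0.35), PDC replicate 2 (0.23) or CD8+ DC replicate 2 (0.31). miR-107, with the same seed, had a similar difference that was not called in the main scaling (0.32 ± 0.13, adjusted p = 0.0671). Under the 3 other scalings it was called higher in PDC.

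The let-7 family, whose members restrain growth genes and are abundant in mature cells, had 9 tested: 3 higher in PDC, 1 lower and 5 not called. Over all tested miRNAs 15.4 percent were called higher and 37.7 percent lower. let-7g read 1.62 and 1.75 in PDC and 1.33 and 1.30 in CD8+ DC (0.37 ± 0.09, adjusted p = 0.00865). let-7c (0.35 ± 0.10, adjusted p = 0.0224) and let-7b (0.29 ± 0.10, adjusted p = 0.0452) were called as well, but removing any 1 of the 4 arrays cost both their calls, with differences of 0.32 to 0.37 and of 0.25 to 0.32. Across replicates, and so across array designs, the PDC and CD8+ DC arrays of let-7b touched, at -0.09. Within the replicates PDC were higher by 0.29 and 0.29. let-7a, let-7f, let-7d, let-7i and let-7e were not called (-0.21 to 0.16). The list's median was 0.04, and 0.61 under the scaling over all miRNAs, so the family moved with the scaling as all miRNAs did. miR-98, which has the same seed, was called lower (-0.60 ± 0.13, adjusted p = 0.00467), a difference of 0.083 under the scaling over all miRNAs and of -0.40 without PDC replicate 1.

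Among miRNAs lower in PDC, miR-223 is the one best tied to a lineage. This myeloid miRNA, encoded on chromosome X (mm9, probes at 93438225 to 93438244) and known to restrain granulocyte production and inflammasome activity, read 0.52 and 0.09 in PDC and 3.35 and 3.23 in CD8+ DC. The 2 pairs lay far apart, with a 7.91-fold higher level in CD8+ DC (-2.98 ± 0.20, adjusted p = 5.06e-06). Of 9 myeloid miRNAs on the list 8 were tested, 0 were higher in PDC, 4 were lower (miR-223, miR-34a, miR-22 and miR-21) and 4 were not called. Under all 4 scalings 3 were lower. Both counts include miR-34a, which was low in the Gr1+ monocytes of these data (-4.90 and -5.13, against -3.39 and -3.22 in MP). Its part in them is thus not that of a miRNA high in these monocytes. Over all 175 miRNAs 15.4 percent were called higher and 37.7 percent lower, the latter 9.71 percent under all 4 scalings. The median difference over the 8 was -0.75, beside -0.20 over all 175 miRNAs. miR-22, known from haematopoietic stem cells and conventional DC, read -2.08 and -2.34 in PDC and -0.48 and -0.38 in CD8+ DC, 3.44-fold higher in the latter (-1.78 ± 0.22, adjusted p = 0.000184). miR-21, an abundant miRNA of many cell types, was called lower (-1.49 ± 0.38, adjusted p = 0.0107) but read 1.32 and -0.01 in PDC, a spread close to the difference itself. It was not called with scaling over all miRNAs (-0.80) or by quantiles (-1.15), nor without PDC replicate 2 (-0.82), CD8+ DC replicate 1 (-1.45) and CD8+ DC replicate 2 (-1.54).

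miR-34a, a target of p53 that represses cell cycle genes, had a difference close to that of miR-138, and both exceeded the other miRNAs lower in PDC in the main scaling. It read -4.10 and -5.16 in PDC and -1.43 and -1.14 in CD8+ DC, 10.1-fold higher in the latter (-3.34 ± 0.28, adjusted p = 2.20e-05). The replicate differences were -2.67 and -4.02, the PDC arrays being further apart than the CD8+ DC arrays. CD8+ DC were not the cells with most miR-34a: the means of CD4+ DC and CD4-CD8- DC were both 0.11, and CD8+ DC were lower than both together (-1.39 ± 0.24, adjusted p = 0.00271). miR-342-3p, which lies in an intron of Evl and is known from lymphocytes and DC, read -0.52 and -0.58 in PDC and 1.53 and 1.73 in CD8+ DC, 4.52-fold higher in the latter (-2.18 ± 0.29, adjusted p = 0.000278). Its other arm, miR-342-5p, was also called lower in PDC (-0.92 ± 0.23, adjusted p = 0.00865), but not under all 4 scalings.

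miR-138, miR-365 and miR-212 were clear in CD8+ DC and near the floor in PDC. miR-138, known from neurons, read -2.02 and -2.41 in CD8+ DC and was not above background in PDC, which makes it at least 8.42-fold higher in CD8+ DC (-3.33 ± 0.15, adjusted p = 5.51e-07). It was detected on both CD4+ DC arrays, where its mean was -4.55, and on 0 arrays of the other 6 populations. Its passenger miR-138* was likewise not above background in PDC and at least 1.34-fold higher in CD8+ DC (-0.67 ± 0.11, adjusted p = 0.00106), though not called under all 4 scalings. miR-365 read -3.59 and -3.35 in CD8+ DC and was detected on 1 PDC array, close to the floor (-1.83 ± 0.19, adjusted p = 6.41e-05). miR-212, induced by CREB and by immune activation, read -3.69 and -3.52 in CD8+ DC and -5.30 and -5.68 in PDC, again with 1 PDC array detected (-1.89 ± 0.31, adjusted p = 0.00106). Of 11 immune activation miRNAs on the list 6 were tested, 0 were higher in PDC, 4 lower and 2 not called. The shares over all tested miRNAs were 15.4 percent higher and 37.7 percent lower. On this list miR-212 was the one called under all 4 scalings.

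The other activation miRNAs depended on the scaling. miR-155, induced in DC by danger signals, read -3.48 and -3.39 in PDC and -2.16 and -0.86 in CD8+ DC, a 3.79-fold difference (-1.92 ± 0.36, adjusted p = 0.00260). The CD8+ DC arrays differed from each other by more than 1 unit, and scaled over all miRNAs the difference was -1.23 and no longer called (adjusted p = 0.0563). miR-146a, a brake on NF-kappaB signalling, read -0.55 and -1.59 in PDC and 0.32 and 0.38 in CD8+ DC (-1.42 ± 0.31, adjusted p = 0.00496), with -0.73 and no call when scaled over all miRNAs and -0.94 without PDC replicate 2. miR-146b was called lower as well (-1.06 ± 0.17, adjusted p = 0.000863; -0.32 when scaled over all miRNAs). CD86, by which the CD8+ DC but not the PDC were gated, is itself a costimulatory protein that rises on activation, and its part in these differences was not tested.

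For the other miRNAs higher in CD8+ DC no role is given here. miR-714 read -5.30 and -4.74 in PDC and -1.71 and -2.68 in CD8+ DC (-2.82 ± 0.42, adjusted p = 0.000607). miR-1224 read -1.37 and -0.80 in PDC and 1.23 and 1.64 in CD8+ DC (-2.52 ± 0.14, adjusted p = 2.30e-06). miR-721 was not above background in PDC and was at least 4.65-fold higher in CD8+ DC, where it read -2.71 and -3.43 (-2.47 ± 0.52, adjusted p = 0.00441). miR-721 has the seed AGUGCAA of miR-130a, which was higher in PDC, while miR-130b and miR-301a with that seed were not called in the main scaling (both -0.07). miR-697 (-2.33 ± 0.39, adjusted p = 0.00116), miR-689 (-1.57 ± 0.15, adjusted p = 5.08e-05), miR-320 (-1.56 ± 0.36, adjusted p = 0.00656) and miR-1906 (-1.49 ± 0.12, adjusted p = 2.08e-05) were higher in CD8+ DC too. Against PDC, where neither was above background, miR-370 was at least 2.86-fold and miR-125a-3p at least 1.98-fold higher in CD8+ DC. miR-1904 (-1.95 ± 0.43, adjusted p = 0.00543) and miR-1897-5p (-1.86 ± 0.50, adjusted p = 0.0134) were called but not under all 4 scalings, miR-1904 also not without PDC replicate 1 (-1.44), and miR-1897-5p also not without CD8+ DC replicate 1 (-1.87), PDC replicate 2 (-1.67) or CD8+ DC replicate 2 (-1.84). miR-320, miR-689, miR-1906 and miR-125a-3p were named after their values were seen.

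Differences were set beside base composition. Among the 151 miRNAs with a matched sequence, the median difference was -0.31 for 28 miRNAs of up to 40 percent G and C, -0.03 for 65 between 40 and 50 percent, -0.44 for 33 between 50 and 60 percent, and -0.83 for 25 above 60 percent. Scaled over all miRNAs these medians were 0.11, 0.53, 0.00 and -0.14, the miRNAs above 60 percent again being lowest and those between 40 and 50 percent highest. The ranges were not ordered by their share of G and C, and in replicate 1 the range up to 40 percent (-0.36) lay below that between 50 and 60 percent (-0.23), whereas in replicate 2 it lay above (-0.29 and -0.69). The 23 miRNAs higher in PDC under all 4 scalings that had a sequence held a median of 45.5 percent G and C, the 14 lower ones 53.5 percent, and all 151 a median of 47.6 percent. miR-1224 (66.7 percent), miR-370 and miR-1906 (68.2 percent each) and miR-188-5p (61.9 percent) lay at the upper end, whereas miR-223 (40.9 percent), miR-365 (31.8 percent) and miR-22 (45.5 percent) did not. The part of base composition in the differences was not tested.

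**Figure D4:**
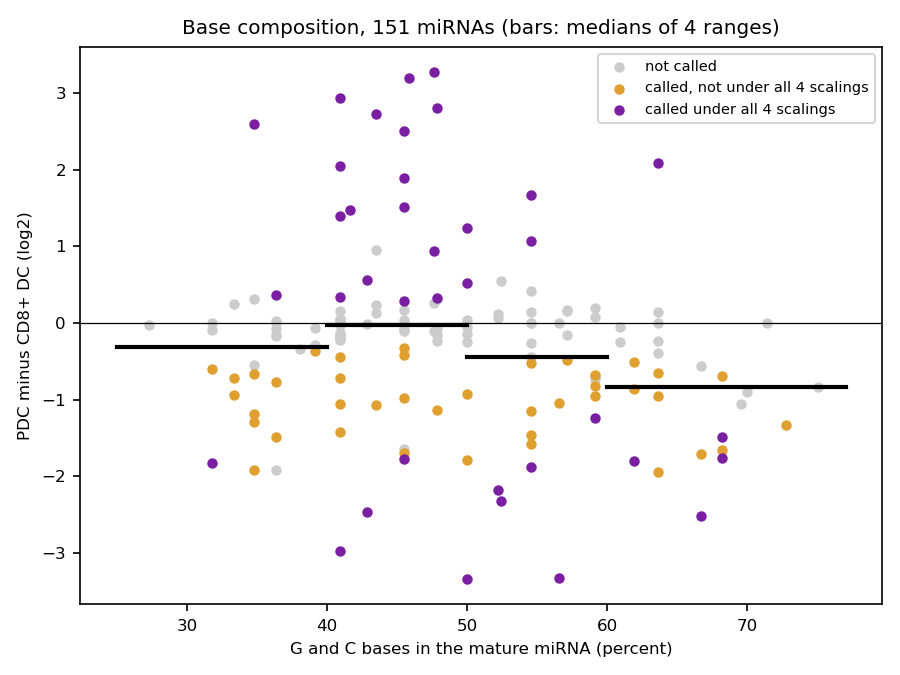
Share of G and C bases in the mature sequence (horizontal axis, percent) against PDC minus CD8+ DC (vertical axis, log2) for 151 miRNAs, coloured by call, with bars at the medians of 4 ranges. Above 60 percent the median is -0.83, and most miRNAs far above 0 lie between 40 and 50 percent.

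To see how the differences depend on the spleen population compared, PDC and CD8+ DC were each set against the mean of CD4+ DC and CD4-CD8- DC. The labels list CD86 for CD8+ DC and not for those populations, so the gate cannot be told apart from the population in this contrast either. The 2 contrasts share those arrays with each other and the PDC or CD8+ DC arrays with the main comparison, so their values stand side by side and do not support one another. CD8+ DC differed from the other spleen DC in 58 of 175 miRNAs (33.1 percent), 45 higher (25.7 percent) and 13 lower (7.43 percent). Under all 4 scalings 22 were called (12.6 percent), 9 higher (5.14 percent) and 13 lower (7.43 percent). PDC differed from the other spleen DC in 62 (35.4 percent), 32 higher (18.3 percent) and 30 lower (17.1 percent). Under all 4 scalings 50 were called (28.6 percent), 23 higher (13.1 percent) and 27 lower (15.4 percent). The 58 fell to 37 without CD8+ DC replicate 1 and to 37 without CD8+ DC replicate 2.

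Most of the 26 miRNAs higher in PDC than in CD8+ DC were also higher in PDC than in the other spleen DC. Against the other spleen DC, 24 of 26 were called higher in PDC, 20 of them under all 4 scalings, the exceptions to the 24 being let-7b (0.16) and let-7c (0.16). Over all 175 miRNAs 18.3 percent were called higher in PDC in that contrast, and 13.1 percent under all 4 scalings. miR-128 differed from the other spleen DC by 3.46 ± 0.23, miR-362-3p by 3.52 ± 0.24, miR-592 by 2.60 ± 0.15 and miR-148a by 2.59 ± 0.12. CD8+ DC differed from the other spleen DC in 33.1 percent of all 175 miRNAs. In 4 of the 26, CD8+ DC themselves differed from the other spleen DC: miR-181a (-0.68 ± 0.11, adjusted p = 0.00237) and miR-181b (-0.78 ± 0.13, adjusted p = 0.00237) were lower in CD8+ DC, and miR-148a (0.54 ± 0.12, adjusted p = 0.00852) and miR-374 (0.37 ± 0.11, adjusted p = 0.0312) were higher. The first pair was called under all 4 scalings, whereas miR-148a and miR-374 were not and changed sign between scalings. The miR-181a gap was thus 2.80 against CD8+ DC and 2.13 against the other spleen DC.

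Most of the 17 miRNAs lower in PDC were also higher in CD8+ DC than in the other spleen DC. In 14 of 17, CD8+ DC were also called higher than the other spleen DC, 8 of them under all 4 scalings. Over all 175 miRNAs these shares were 25.7 and 5.14 percent. In 9 of 17 PDC were not called against the other spleen DC. Over all 175 miRNAs 35.4 percent were called in that contrast, so a missing call there is not particular to the 17. miR-138 was 2.83 ± 0.13 higher in CD8+ DC than in the other spleen DC (adjusted p = 1.63e-06), while PDC lay 0.50 ± 0.13 below the latter, with values limited by the floor. miR-365 was 1.82 ± 0.16 higher in CD8+ DC (adjusted p = 9.57e-05) and PDC differed from the other spleen DC by -0.01 ± 0.16. The same held for miR-714 (2.47 ± 0.36 and -0.35 ± 0.36), miR-697 (1.95 ± 0.33 and -0.38 ± 0.33) and miR-188-5p (1.66 ± 0.32 and -0.14 ± 0.32). miR-22 and miR-342-3p were not called in CD8+ DC against the other spleen DC (0.24 ± 0.19, adjusted p = 0.355, and 0.71 ± 0.25, adjusted p = 0.0570), whereas PDC were lower than those by 1.54 ± 0.19 (adjusted p = 0.000215) and 1.47 ± 0.25 (adjusted p = 0.0013). miR-34a was called lower in CD8+ DC than in the other spleen DC (-1.39 ± 0.24, adjusted p = 0.00271), and PDC lay lower still (-4.74 ± 0.24, adjusted p = 1.3e-06). miR-223 was both lower in PDC (-2.11 ± 0.17, adjusted p = 1.47e-05) and higher in CD8+ DC (0.88 ± 0.17, adjusted p = 0.00425) than in the other spleen DC, the latter not under all 4 scalings.

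**Figure D5:**
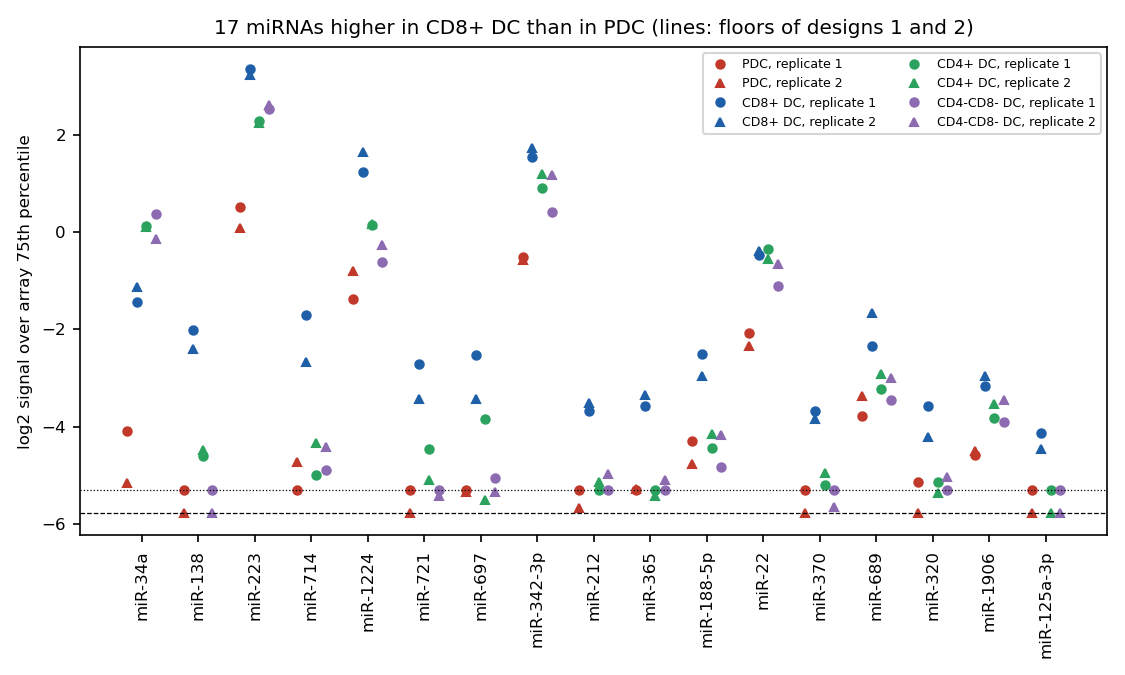
Levels of the 17 miRNAs lower in PDC than in CD8+ DC under all 4 scalings, in PDC and the 3 spleen DC populations (vertical axis, log2 signal over the array's 75th percentile; circles and triangles, replicates 1 and 2; lines, the floors of the 2 designs). For miR-34a, CD4+ DC and CD4-CD8- DC lie above CD8+ DC; for miR-138 and miR-365, CD8+ DC lie above all other arrays shown; for miR-22, the 3 spleen populations lie together above PDC.

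Other families moved little or with the scaling. Their counts stand beside 15.4 percent called higher and 37.7 percent called lower over all tested miRNAs. Of 11 tested members of the miR-17 clusters, which promote proliferation, 2 were higher in PDC (miR-106b and miR-25), 4 were lower and 5 were not called, with a median of -0.28. miR-18a was the furthest of those lower (-1.07 ± 0.19, adjusted p = 0.00160; -0.38 when scaled over all miRNAs), and miR-17* (-0.52 ± 0.14, adjusted p = 0.0152) turned to 0.16 with that scaling and lost its call without PDC replicate 1 (-0.34) or CD8+ DC replicate 1 (-0.46). Both arms of miR-142, a miRNA found in all blood cells, were called lower: miR-142-5p by -0.72 ± 0.17 (adjusted p = 0.00834) and miR-142-3p by -0.66 ± 0.19 (adjusted p = 0.0169). Under the scaling over all miRNAs these were -0.03 and 0.024, and both calls ended without PDC replicate 1 (-0.50 and -0.59) or CD8+ DC replicate 1 (-0.69 and -0.48). Of 5 tested members of the miR-15 and miR-16 family, which target cyclins and Bcl2, 1 was called lower, miR-16 (-0.33 ± 0.11, adjusted p = 0.0282). Its difference was 0.35 scaled over all miRNAs and 0.43 after quantile normalization, and its call ended without PDC replicate 1 (-0.19), CD8+ DC replicate 1 (-0.30) or CD8+ DC replicate 2 (-0.37). Of the miR-29 family 0 of 3 were called, of the miR-30 family 2 of 5 were lower (miR-30a and miR-30b), and miR-221 and miR-222, which act on Kit, were not called (-0.16 and 0.12). miR-30b (-0.33 ± 0.12, adjusted p = 0.0432) turned to 0.35 when scaled over all miRNAs, and its call ended without PDC replicate 1 (-0.21), CD8+ DC replicate 1 (-0.27) or CD8+ DC replicate 2 (-0.40).

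The lymphoid list was not of one direction, its counts standing beside 15.4 percent higher and 37.7 percent lower over all tested miRNAs. Of its 9 miRNAs, all tested, 6 were higher in PDC (the 4 of the miR-181 family, miR-128 and miR-592), 2 lower (both arms of miR-342) and 1 not called; miR-128 and miR-592 were put on this list with their PDC levels known. That 1 was miR-150, the most typical miRNA of mature B and T cells, which read -1.11 and -0.55 in PDC and -1.44 and -0.83 in CD8+ DC. PDC were higher by 0.32 and 0.28 within the replicates, while across replicates the groups overlapped, and the standard error was larger than the difference (0.30 ± 0.56, adjusted p = 0.705).

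Markers of other cells were measured in the same arrays. Of 3 erythroid miRNAs 2 were tested, and the summed scaled level was 0.155 and 0.362 in PDC and 1.28 and 0.547 in CD8+ DC. miR-451, the main miRNA of red cells, read -2.95 and -1.54 in PDC and 0.31 and -0.96 in CD8+ DC, and was not called (-1.92 ± 1.08, adjusted p = 0.178). Its replicate differences were unlike in size, at -3.26 and -0.58. miR-486 was not above background in PDC and at least 1.34-fold higher in CD8+ DC (-0.68 ± 0.14, adjusted p = 0.00429), but was not called when scaled over all miRNAs (-0.23) or by quantiles (-0.21). Of 20 stromal, endothelial, muscle and epithelial miRNAs 3 were tested, and miR-126-3p was the one called. Their summed level was 0.118 and 0.135 in PDC and 0.0763 and 0.0591 in CD8+ DC, set in part by the floor. In CD8+ DC all 3 lay at the floor in replicate 1, and miR-126-3p and miR-200c in replicate 2. In PDC miR-200b lay at it on both arrays and miR-200c in replicate 1. Of 32 miRNAs of the imprinted Dlk1-Dio3 locus 2 were tested: miR-370, lower in PDC, and miR-494, which read -1.95 and 0.61 in PDC and 1.76 and 0.21 in CD8+ DC and was not called (-1.65 ± 0.93, adjusted p = 0.178). The part of other cells in the differences above was not tested, and fewer cells of a type cannot be told apart from less of a miRNA per cell.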

How the data were processed

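RNA of 16 sorted samples (8 populations, 2 replicates) was labelled with Cy3 from total RNA and hybridised to 1-colour Agilent miRNA arrays, per the labels. The intensity values are the processed signals as deposited by the authors, on a linear scale. Per the file headers, Agilent Feature Extraction was run in version 10.7.3.1 and had subtracted the background, while version 9.1 is given in the submitters' processing notes. Probe positions are mm9, per the file headers.

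From these values, spots marked as outliers were dropped, spots and then probes of a miRNA were averaged, and arrays were scaled by the 75th percentile taken over the 88 miRNAs that all 16 arrays detected. Detection needed 1 probe with a share of 0.5 or more of its spots well above background. Dimmer values were set to a floor, computed per design as the median over arrays of the detected values' 5th percentile, and log2 was taken. The 604 miRNAs on both designs were used, and 7 and 92 of a single design were left out of the comparisons. The 175 with detection on both arrays of some population were fitted with limma 3.58.1 (R 4.3.3), with 8 population means and array design as a block (8.52 degrees of freedom in all, limma's prior included), and p-values were adjusted by Benjamini and Hochberg within each contrast. The design marks the replicate number, and the fit pairs the samples by it. Same-numbered arrays deviated together, with r of 0.297 to 0.917 across miRNAs over 28 pairs of populations (0.393 for PDC with CD8+ DC). The unlike floors of the designs, and any other offset between the designs, enter these r. They thus do not show a pairing of samples apart from array design. Scripts were tested on simulated arrays. Alternatives were 3 other scalings, normexp, no block, the 4 arrays alone, the brightest probe, other filters, a floor at the 25th percentile, the deposited series tables, and leaving out each array.

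The members, the lists and the naming rule were chosen with earlier results of these data known. The rule takes the 12 miRNAs with the largest difference in each direction among calls whose replicates share a sign, up to 4 per list with the smallest p, and a set of 17 given by name; others were named after their values were seen.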

Additional observations from a re-analysis of the deposited data

Results flagged for a closer look

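A signal was present in data outside the comparisons for 6 miRNAs that only array design 2 carries. They were detected in 1 of the 2 populations and not in the other, each on a single array, so no test was made and the signals are given on the scanner's linear scale. In CD8+ DC replicate 2 these were miR-3474 (22.6, against 6.50 in PDC replicate 2), miR-2183 (13.7, against 11.1), miR-1940 (12.6, against 7.11), miR-767 (12.6, against 8.99) and miR-2182 (6.44, against 0.78). In PDC replicate 2 it was miR-467a-1* (9.79, against 3.11). With 2 arrays per population, arrays were not tested for standing apart from their group.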

How the results depend on the processing

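The counts of calls moved with the processing more than the directions of the large differences did. Against the 93 called (27 higher and 66 lower in PDC), 13 were called with normexp (4 and 9), 0 on the 4 arrays alone (0 and 0), and 49 when only miRNAs detected on all arrays were tested (15 and 34). Without the replicate block on array design 60 were called, 39 of them lower, and with no filter, which adjusts over 604 miRNAs, 60 were called, again 39 lower. Scaling over all miRNAs gave 51 higher and 17 lower, and quantile normalization 43 and 37. Leaving out 1 array gave 67 to 80 calls, 19 to 29 higher and 43 to 51 lower. CD8+ DC against the other spleen DC had 1 call with normexp and 37 to 60 with an array left out, and PDC against the other spleen DC 16 and 60 to 64. Among the miRNAs named by rule, differences called under the main or the other scaling changed sign when scaled over all miRNAs for miR-142-3p (0.024), miR-17* (0.16), miR-98 (0.083), miR-16 (0.35), miR-15a (0.56), miR-29a (0.53), miR-30b (0.35) and miR-26a (0.24), and after quantile normalization for miR-16 (0.43), miR-15b (0.44), miR-15a (0.41), miR-29a (0.35) and miR-26a (0.23). The cause of these changes was not tested. Of the 43 calls made under all 4 scalings, no filter ended 7, a floor at the 25th percentile 4 and the fit without the block 5. The deposited series tables hold the same spot values, up to rounding, for 100 percent of the spots. They gave the same call for each named miRNA, which was thus fixed in advance and is no separate check. Dim miRNAs are limited by the floor: of the 175 tested, 49 and 34 lay at it in PDC and 27 and 21 in CD8+ DC.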

Other observations

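Of the 92 miRNAs on array design 2 alone, 31 were detected in PDC replicate 2 and 35 in CD8+ DC replicate 2, with 30 detected in both. Each population has a single array here, so these are values with no replicate check. The furthest apart were miR-2861, at -4.71 in PDC and -1.03 in CD8+ DC, and miR-2132, at -1.40 and 1.81, both on the log2 scale relative to the array's 75th percentile. miR-1839-5p, at -3.30 in PDC and -3.90 in CD8+ DC, lay furthest in the other direction, while its other arm miR-1839-3p read -4.12 and -2.30.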
